A study of Mus musculus with 2 samples.

Results

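The replacement histone variants described here are 4 genes of mouse cortical neurospheres. They are *H2afv*, which encodes the H2A.Z form H2A.Z.2, *H2afy*, which encodes macroH2A1, and *H3f3a* and *H3f3b*, which both encode histone H3.3. The rule listed 6 genes by symbol and took those with a row in the expression table. Of the 6, 4 had a row among its 10666 genes, and *H2afz* and *H2afx* were not analysed here. Single-cell RNA-seq libraries were made from 2 replicate cultures of 1 condition, with 5748 cells in culture 1 and 7057 cells in culture 2. The cells came from wild-type C57BL/6 embryos at embryonic day 14.5. They were dissected from the dorsal telencephalon, passaged as free-floating spheres with EGF and bFGF at 10 ng/ml, and dissociated before library preparation with the Chromium 3′ chemistry. How many embryos stood behind a culture was not stated. With a single condition, nothing could be tested against a control, and no p-values are given. The spread between the 2 cultures, which may be technical, is the only replicate error.

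Most histone mRNA is made in S phase from replication-dependent genes whose transcripts end in a stem-loop. Replacement variants come mainly from polyadenylated transcripts, and their proteins can enter nucleosomes outside DNA replication. H2A.Z sits beside transcription start sites and is placed there by the SRCAP and p400-TIP60 complexes. H3.3 is deposited in active genes by HIRA and at telomeres and other heterochromatin by DAXX and ATRX. MacroH2A carries a large globular domain and is enriched in silent chromatin. The question put to the data was how the transcripts of these variants are distributed over the cell cycle of dividing neural progenitors.

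All 4 genes lie on the minus strand of GRCm38 (GENCODE annotation). *H2afv* (ENSMUSG00000041126) is at chr11:6427229-6444443. *H2afy* (ENSMUSG00000015937) is at chr13:56073619-56136361. *H3f3a* (ENSMUSG00000060743) is at chr1:180800832-180813943. *H3f3b* (ENSMUSG00000016559) is at chr11:116021912-116027962.

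Promoters are shown because the members differed in how they followed the cell cycle, and because the CCAAT box and the cell cycle genes homology region (CHR) are letters known from promoters of genes used in G2 and mitosis. All 4 members matched a RefSeq entry. The 250 bases before the start site (GRCm38.p6) were searched on both strands for CCAAT, for TTTGAA or TTTAAA as the CHR, for TGACG, the core of a cyclic AMP response element, for TATAAA and for GGGCGG. In the *H2afv* sequence, written 5′ to 3′, capitals mark 4 CCAAT boxes, all read on the other strand as ATTGG, and 1 CHR, read as TTCAAA.
H2afv, chr11:6444444-6444693, minus strand: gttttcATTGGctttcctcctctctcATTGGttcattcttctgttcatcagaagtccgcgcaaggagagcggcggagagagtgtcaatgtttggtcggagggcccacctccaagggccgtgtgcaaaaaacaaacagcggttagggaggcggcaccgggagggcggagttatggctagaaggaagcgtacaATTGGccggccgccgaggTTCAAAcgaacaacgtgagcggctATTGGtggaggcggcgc
The CHR starts at -41 from the start site and lies between the CCAAT boxes that start at -59 and -17. Among 32851 promoters of the same length, 33.8% held a CCAAT box, 25.2% held a CHR and 8.78% held both.

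The H3.3 genes code for the same protein from different DNA. Their coding sequences of 411 bases differed at 95 bases (76.9% identical), and 81 of these differences fell on the third base of a codon. Their upstream windows differed as well. The *H3f3b* window, like that of *H2afv*, held 4 CCAAT boxes, and that of *H3f3a* held 1. At least 4 CCAAT boxes were found in 0.84% of all promoters. Neither H3.3 window held a CHR, unlike that of *H2afv*. In the annotation, 214 bases of the *H3f3b* window, 99 of the *H3f3a* window and 81 of the *H2afy* window lie in untranslated exon, and none of the *H2afv* window. The stretches of 25 bases around each box follow, with the box in capitals. The boxes of *H3f3b* read CCAAT on the strand of the gene and that of *H3f3a* reads ATTGG.
H3f3a at -24, chr1:180813615-180813639, minus strand: attgtgtgtgATTGGctggagcgcg
H3f3b at -214, chr11:116024704-116024728, minus strand: ttgcatccagCCAATcctgaagcaa
H3f3b at -190, chr11:116024680-116024704, minus strand: attgtaacagCCAATcagtggcctg
H3f3b at -167, chr11:116024657-116024681, minus strand: tgaacaccggCCAATcaggaaacgg
H3f3b at -97, chr11:116024587-116024611, minus strand: aaagctcccgCCAATcgaaaaagtc
The *H3f3b* window also held 2 TGACG motifs and 1 TATAAA, which were present in 17.8% and 12.4% of all promoters. The *H3f3a* window held neither and had 4 GGGCGG boxes, a motif present in 32.7% of promoters. The *H2afy* window held 2 GGGCGG boxes and no CCAAT box or CHR. E2F motifs were searched as well and occurred in none of the 4 windows, against 2.92% of all promoters. These matches describe letters and were not tested as binding sites.

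The labelled tissue was checked against markers. *Fabp7* was detected in at least 99.9% of cells of each culture, *Vim* in at least 99.2% and *Nes* in at least 89.8%, all of them genes of radial glia and neural progenitors. Of the same list, *Hes1* was detected in 44.5% and 50.5% of cells and *Pax6* in 21.1% and 23.1%. *Emx2*, a transcription factor of the dorsal telencephalon, was detected in 21.8% of cells of culture 1 and 21.1% of culture 2. *Olig2*, known from ventral progenitors and the oligodendrocyte lineage, was detected in 97.3% and 91.9% of cells. The listed genes of microglia, endothelium, fibroblasts and mural cells had no row among the genes used, as also held for *Sox2* and *Emx1*, so their level was not assessed. The median depth was 19477 UMIs per cell in culture 1 and 14637 in culture 2, and 48 cell barcodes occurred in both libraries.

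The cells are ordered by the authors' cell-cycle position, an angle from 0 to 2π computed from cell-cycle genes of the same cells. Whether a member was among those genes could not be checked. The fits of the members, the number of varying genes and the smoothed lines were therefore repeated with a second position. It was computed from 93 S and G2M genes of Seurat, none of which is a member. Its circular correlation with the deposited position was 0.933 in culture 1 and 0.913 in culture 2. Class means, the *H3f3b* share, correlations, counts in gene lists and marker comparisons used the deposited position alone. Known genes set the scale. In the fits described next, the replication genes *Mcm6* and *Pcna* were highest at 0.71π and 0.80π in culture 1. *Top2a*, the topoisomerase that untangles chromosomes, followed at 0.97π, *Cdk1*, the mitotic kinase, at 1.04π, and *Cenpf*, a kinetochore protein, at 1.175π. In culture 2 the same 5 genes were highest at 0.67π, 0.765π, 0.95π, 1.03π and 1.11π.

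Each gene was fitted in each culture with 2 harmonics of the position on log2(value + 1), where the value is normalized to the depth of the cell. A gene was counted as varying with the position where R² reached 0.05 in both cultures. This held for 428 of the 10666 genes, or 4.01%, and for 10.4% of the 346 genes whose mean value was at least that of the lowest member. Among the members, *H2afv* and *H3f3b* passed, 2 of 4. The R² of *H2afv* was 0.210 in culture 1 and 0.242 in culture 2, and that of *H3f3b* was 0.280 and 0.157. By the lower R² of the 2 cultures these genes ranked 131 and 175 among all genes. *H2afy* had 0.0690 and 0.0384, on either side of the threshold. *H3f3a* had 0.0133 and 0.0108. At a lower threshold of 0.02, which 8.34% of all genes reached, *H2afy* passed too and *H3f3a* did not. So the H3.3 genes fell on opposite sides of the threshold in both cultures. With the position of the Seurat genes the lower R² was 0.201 for *H2afv*, 0.151 for *H3f3b*, 0.0390 for *H2afy* and 0.0101 for *H3f3a*.

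**Figure D1:**
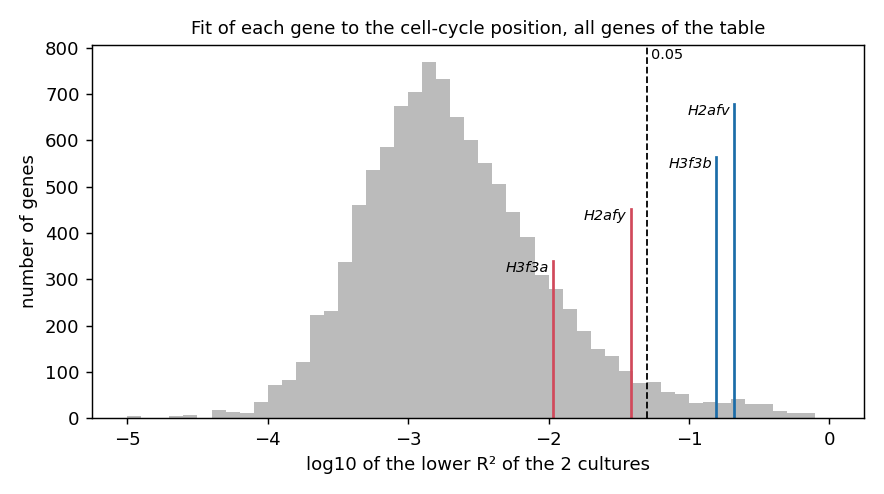
Histogram of the lower R² of the 2 cultures over all 10666 genes, on a log10 axis with the number of genes on the y axis. Vertical lines mark the 4 members and the dashed line the threshold of 0.05, with *H2afv* and *H3f3b* (blue) to its right and *H2afy* and *H3f3a* (red) to its left.

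For the levels along the cycle, cells were divided by position into 8 classes of width 0.25π, numbered from position 0, so that class 5 begins at π. The classes differ in size. Class 8 held 1789 cells in culture 1 and 3149 in culture 2, while class 6 held 85 and 279 and class 7 held 64 and 189. Levels are depth-normalized values, and the highest and lowest classes of a gene were picked from the mean of both cultures, so a ratio between them is a description.

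*H2afv* had the widest range of the members. Its mean value in culture 1 was 3.78, 4.12, 4.74 and 5.59 in classes 1 to 4, then 7.89, 8.30 and 6.24 in classes 5 to 7 and 3.43 in class 8. In culture 2 it was 3.72, 4.53, 4.81 and 6.17 in classes 1 to 4, then 8.19, 7.90 and 7.68 in classes 5 to 7 and 3.56 in class 8. In both cultures the level climbed from class 1 through the S phase genes' maxima, stayed high past π and was lowest in class 8. Class 6 was 2.32 ± 0.14-fold (SD, n = 2 cultures) above class 8. The share of cells with a nonzero *H2afv* value went from 88.7% and 87.1% in class 8 to 99.2% and 99.6% in class 5. The periodic loess line peaked at 1.165π (culture 1) and 1.29π (culture 2) and was lowest at 0.05π and 0.08π, spanning 1.18 ± 0.17 log2 units (SD, n = 2).

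*H3f3b* had the highest level of the members and ranked 83 among all genes by mean value. Its mean value in culture 1 was 18.7, 16.9 and 18.5 in classes 1 to 3, then 26.3 and 31.4 in classes 4 and 5, and 24.4, 23.3 and 18.8 in classes 6 to 8. In culture 2 it was 18.5, 17.1 and 19.0 in classes 1 to 3, then 26.2 and 27.9 in classes 4 and 5, and 26.5, 24.3 and 19.6 in classes 6 to 8. Unlike *H2afv*, it was lowest in class 2 and its step up lay between classes 3 and 4, before the maxima of *Top2a*, *Cdk1* and *Cenpf*. Class 5 was 1.74 ± 0.15-fold (SD, n = 2) above class 2. The loess line was lowest at 0.285π and 0.28π and highest at 1.165π and 1.17π, with a range of 0.79 ± 0.10 log2 units (SD, n = 2).

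The order of the maxima of *H2afv* and *H3f3b* depended on how the curve was fitted. In culture 1 both loess lines peaked at 1.165π, and in culture 2 that of *H2afv* peaked later, at 1.29π against 1.17π. The harmonic fits put *H2afv* at 1.32π and 1.35π and *H3f3b* at 1.11π and 1.12π. With a loess span of 0.1 *H2afv* also peaked later in both cultures, at 1.245π and 1.19π against 1.035π and 0.985π. With a span of 0.5 it peaked earlier, at 1.035π and 1.15π against 1.055π and 1.265π. Between classes 5 and 6 *H3f3b* moved down in both cultures, from 31.4 to 24.4 and from 27.9 to 26.5, while *H2afv* moved from 7.89 to 8.30 in the first and from 8.19 to 7.90 in the second. The minima lay at 0.05π and 0.08π for *H2afv* against 0.285π and 0.28π for *H3f3b*, and drew closer at a span of 0.5, at 0.105π and 0.23π against 0.155π and 0.245π.

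**Figure D2:**
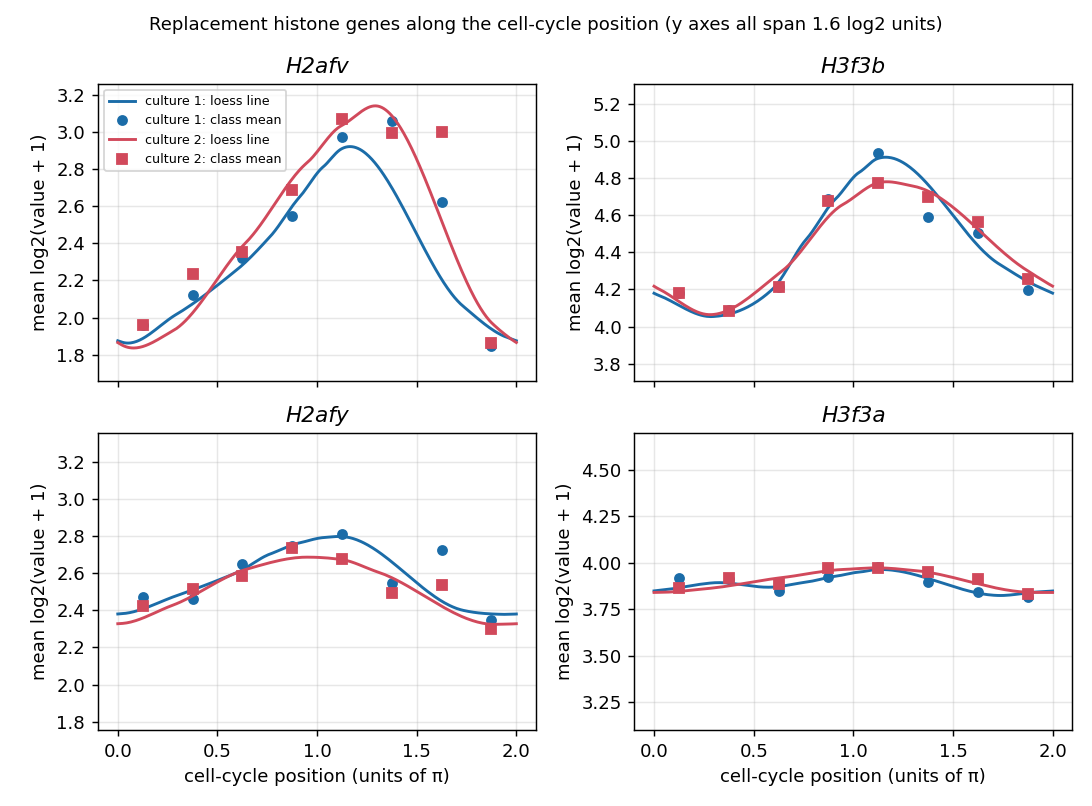
Mean log2(value + 1) of *H2afv*, *H3f3b*, *H2afy* and *H3f3a* against cell-cycle position in units of π, with the periodic loess line and the mean of each of the 8 classes drawn at the middle of the class, for culture 1 (blue, circles) and culture 2 (red, squares). All y axes span the same number of log2 units, and the lines of *H2afv* and *H3f3b* are highest past π while that of *H3f3a* is nearly flat, with a range of 0.14 log2 units.

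*H2afy* varied less. In culture 1 its mean value went from 4.71 in class 8 to 5.23 and 5.08 in classes 1 and 2, 5.94 and 6.28 in classes 3 and 4 and 6.63 in class 5. In culture 2 it went from 4.69 in class 8 to 5.06, 5.37, 5.71 and 6.34 in classes 1 to 4, with 6.09 in class 5. Class 5 was 1.35 ± 0.08-fold (SD, n = 2) above class 8. The loess line had a range of 0.39 ± 0.04 log2 units, with its maximum at 1.11π and 0.95π in the 2 cultures.

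*H3f3a* stayed nearly level. Its class means lay between 14.03 and 15.6 in culture 1 and between 14.3 and 15.5 in culture 2. Class 5 was 1.10 ± 0.02-fold (SD, n = 2) above class 8, and the loess line had a range of 0.136 ± 0.005 log2 units, against 0.79 ± 0.10 for *H3f3b*. One limit concerns *H3f3a* alone. Of the runs of 31 bases in the last 400 bases of its transcripts, 47.3% also occur in transcripts of *H3f3c*, *Gm12657*, *Gm6421* or *Gm10257*, none of which is among the table's rows, so its reads may be shared with these copies. No such run was shared for *H2afv*, *H2afy* or *H3f3b*. *H3f3a* also overlaps the antisense gene *H3f3aos* at its 5′ end.

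The makeup of the H3.3 transcripts therefore differed along the cycle. *H3f3b* made up 53.3% of the summed *H3f3a* and *H3f3b* values in class 2 of either culture. In class 5 it made up 66.8% in culture 1 and 64.2% in culture 2, a difference of 12.25 ± 1.88 percentage points (SD, n = 2). Between these classes the summed H3.3 value went up from 31.8 to 47.0 in culture 1, and culture 2 had 32.0 and 43.4. In culture 1 the *H3f3a* part of that sum went from 14.9 to 15.6 and the *H3f3b* part from 16.9 to 31.4. The absolute share depends on how well each gene is captured and on any scaling of each gene before deposit. The size of its change in percentage points depends on them too, so only the direction is read. Classes 2 and 5 were picked as the lowest and highest of *H3f3b* in these same data, so the direction is a description.

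**Figure D3:**
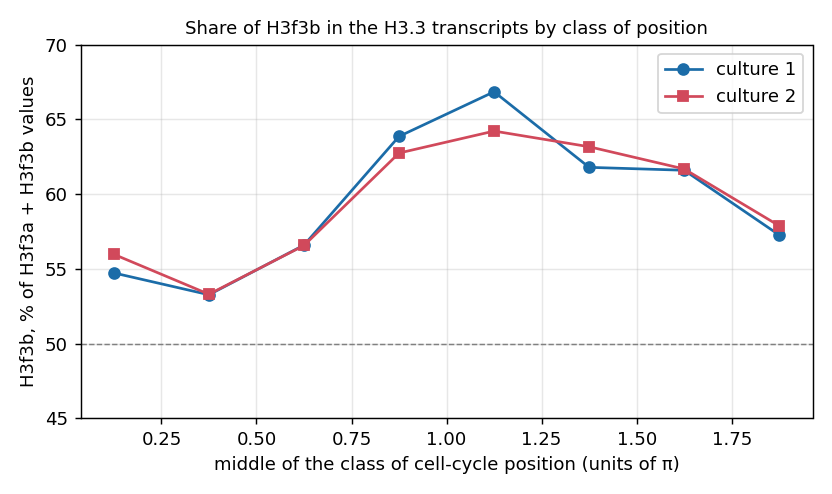
Share of *H3f3b* in the summed *H3f3a* and *H3f3b* values, in percent, for each of the 8 classes of position (x axis, middle of the class in units of π) in culture 1 (blue circles) and culture 2 (red squares). The y axis starts at 45, the dashed line marks equal values, and both cultures are lowest in class 2, at 53.3%, and highest in class 5.

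Cells also hold more RNA before division, and a value normalized to depth does not show this. The median depth in culture 1 was 18437 UMIs per cell in class 8, 22967 in class 4, 20527 in class 5 and 14111 in class 6, and in culture 2 it was 13991, 17148, 17813 and 11882. Values were therefore also multiplied by the cell's total UMIs over the mean of the culture, which estimates an amount per cell. Per cell, class 5 of *H3f3b* was 1.91 ± 0.15-fold (SD, n = 2) above class 2, and class 6 of *H2afv* was 1.92 ± 0.17-fold above class 8. The *H2afv* amount was itself highest in class 5, at 8.15 and 9.36, against 2.93 and 3.199 in class 8. In culture 1 the amounts of *H2afy* and *H3f3a* were lowest in class 6, at 3.66 and 9.89, against 4.12 and 12.1 in class 8. *H2afy* per cell was 1.68 ± 0.06-fold and *H3f3a* 1.37 ± 0.01-fold higher in class 5 than in class 8. On this scale all 4 members passed the threshold, against 5.51% of all genes. The lower R² was 0.271 for *H2afv*, 0.190 for *H3f3b*, 0.0839 for *H2afy* and 0.0652 for *H3f3a*. The scale carries the change of total UMIs with position into every gene. The share among genes of like level was not computed on it, so the 4 passes are not a result particular to the members. For *H3f3a*, little variation relative to depth was seen over all cells, where its loess line had an R² of 0.011 in both cultures. In cells with a depth between the quartiles that R² was 0.051 in culture 1 and 0.013 in culture 2. The range of the line was then 0.26 and 0.16 log2 units, against 0.14 and 0.13 over all cells. Between classes 5 and 6, where median depth fell, the *H3f3b* amount fell from 33.3 to 16.0 in culture 1, with 31.7 and 21.9 in culture 2.

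**Figure D4:**
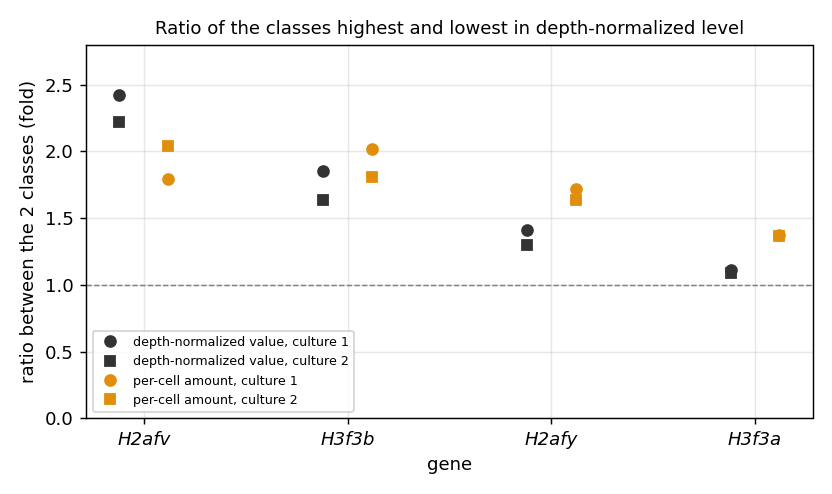
Ratio between the classes of position with the highest and lowest depth-normalized level of each member (fold, y axis from 0), for depth-normalized values (black) and, in the same classes, per-cell amounts (orange), with circles for culture 1 and squares for culture 2. The dashed line marks no difference, and *H3f3a* lies at 1.11 and 1.09 for depth-normalized values and at 1.37 and 1.36 per cell.

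The stages that the authors assigned gave the same order where G2M cells were well separated. By the Seurat stages, *H2afv* had mean values of 3.57 in G1, 4.73 in S and 7.50 in G2M in culture 1, and of 3.65, 4.90 and 8.002 in culture 2. *H3f3b* had 18.9, 19.9 and 30.8 in culture 1 and 19.5, 19.96 and 27.6 in culture 2. By these stages *H2afv* was already higher in S than in G1, whereas the *H3f3b* values of G1 and S lay close together. The other methods placed *H3f3b* higher in S, at 29.2 and 26.4 by cyclone, which called 133 and 56 cells S, and at 24.8 and 23.03 by the 5-stage assignment. *H2afy* had 4.83, 5.81 and 6.58 in culture 1 and 4.76, 5.72 and 6.02 in culture 2, and *H3f3a* had 14.4, 14.5 and 15.5 in culture 1 and 14.4, 14.9 and 15.5 in culture 2. By cyclone, G2M cells had *H3f3b* values of 32.4 and 28.2 against 19.6 and 20.1 in G1, and *H2afv* values of 7.81 and 8.30 against 4.22 and 4.26. The 5-stage assignment showed smaller differences and left 2451 and 3151 cells without a stage. There, *H2afv* was highest in G2.M cells, at 5.89 and 6.46, and lowest in G1.S cells, at 4.29 and 4.43. *H3f3b* was lowest in G1.S cells as well, at 18.7 and 18.4, and reached 25.9 and 23.6 in G2 cells.

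Genes with the most similar patterns were sought by the correlation of class means over 20 classes of width 0.1π, averaged over the cultures, among the other 426 genes that varied with the position. The classes share cells' depth and the position itself, so these correlations are descriptions. *H2afv* was most like *Hmgb1* (r = 0.966), an abundant chromatin protein that bends DNA, *Lsm5* (r = 0.963), which takes part in RNA processing, and *Stmn1* (r = 0.958), a tubulin-binding protein. *H3f3b* was most like *Cdca8* (r = 0.927), a subunit of the chromosomal passenger complex of mitosis, the noncoding RNA *Lockd* (r = 0.925) and the mitotic kinase *Pbk* (r = 0.923). *H2afv* and *H3f3b* correlated with r = 0.826 over these classes, and *H3f3a* and *H3f3b* with r = 0.581.

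Among single cells the members moved together only weakly. Across the cells of a culture, log2 values of *H3f3a* and *H3f3b* had an r of 0.299 in culture 1 and 0.115 in culture 2, and 0.297 and 0.0877 after the fit on position was removed. The pair *H2afv* and *H3f3b* had 0.307 before and 0.121 after in culture 1, and 0.208 and 0.0447 in culture 2. The part of that correlation shared with position was thus larger for *H2afv* and *H3f3b* than for the H3.3 pair. Cells of 1 culture are not replicates, and they differ in depth.

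The factors that place and remove H2A.Z and H3.3 were counted against the 4.01% of all genes that varied with the position. Of 23 measured genes of H2A.Z deposition and removal, 2 (8.7%) passed the threshold, namely *Brd8* (lower R² of 0.126), a subunit of the TIP60 complex, and *Anp32e* (0.102), a chaperone that removes H2A.Z. The fit of *Anp32e* was highest at 1.33π and 1.375π, close to that of *H2afv*. Of 11 genes of H3.3 deposition, 2 (18.2%) passed, namely *Dek* (0.480), a chromatin protein, with maxima at 0.87π and 0.78π, and *Nsd2* (0.0567), a methyltransferase of histone H3. The core factors *Hira* (0.00445), *Daxx* (0.00683) and *Atrx* (0.00670), named here after their values were seen, did not pass. *Hira* was detected in 23.0% and 20.1% of cells, *Daxx* in 32.8% and 22.8% and *Atrx* in 74.3% and 63.0%. The part of sparse detection in their low R² was not tested. The medians of the lower R² were 0.00284 and 0.00683 in these lists and 0.00183 over all genes.

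The same count was made for proteins that handle replication-dependent histones, again beside 4.01% of all genes. Of 12 general and replication-coupled chaperones, 8 (66.7%) passed, led by *Nasp* (0.321), which holds soluble H3 and H4, *Hat1* (0.311), which acetylates new H4, and *Chaf1b* (0.293), a subunit of the chromatin assembly factor CAF-1. The maxima of 7 of the 8 lay between 0.635π and 0.80π, earlier than those of *H2afv* and *H3f3b*. The exception was *Set* (0.0820), named for that reason, with maxima at 1.22π and 0.995π. Of 6 genes that process stem-loop histone mRNA, 3 (50%) passed. These were *Casp8ap2* (0.124), needed to make histone mRNA, *Slbp* (0.0981), which binds the stem-loop, and the exonuclease *Eri1* (0.0858), with maxima between 0.49π and 0.755π.

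Of the other replacement variants, 3 of the 8 listed were measured. *Cenpa*, the centromeric H3, passed with 0.702 and was highest at 1.32π and 1.33π. *H2afy2*, which encodes macroH2A2, had 0.0320 and *H2afj* had 0.0160, and neither passed. Of 17 genes of the response to phosphorylated H2A.X, 6 (35.3%) passed, against 4.01% of all genes. The highest R² were those of *Brca1* (0.130), *Mdc1* (0.104) and *Baz1b* (0.0980), and the maxima of these 3 lay between 0.64π and 0.92π. Of 5 partners of macroH2A, 2 (40%) passed. These were *Hells* (0.472), a remodeller highest at 0.59π and 0.57π, and *Ssrp1* (0.128), a subunit of the FACT chaperone highest at 1.01π and 0.895π.

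Of the markers of glial lineages, *Olig2* was detected in 97.3% and 91.9% of all cells and the astroglial *Slc1a3* in 92.1% and 94.0%. The other measured markers were found in fewer cells. *Sox10* was in 4.3% and 0.75%, *Pdgfra* in 8.8% and 1.8% and *Cspg4* in 11.8% and 13.7%. *S100b* was in 18.6% and 6.6% and *Gja1* in 37.0% and 16.8%. The members were compared within the arc above 1.5π or below 0.25π, where 2523 and 4180 cells lay. Cells with at least 3 of the 4 measured genes *Olig2*, *Sox10*, *Pdgfra* and *Cspg4* of oligodendrocyte progenitors numbered 49 and 24, and cells with none 59 and 321. Mean log2 *H2afv* was higher in the former by 0.42 in culture 1 and 0.45 in culture 2, and *H2afy* by 0.27 and 0.53. *H3f3a* differed by 0.20 and 0.17 in the same direction, and *H3f3b* by 0.01 and -0.15. The median depth was 15151 UMIs with the markers against 14273 without in culture 1, and 17969 against 12630 in culture 2. The part of depth in these differences was not tested, and the class is a range of a marker count, not a cell type.

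For the astroglial genes *S100b*, *Gja1* and *Slc1a3*, 265 and 50 cells of the same arc had all 3, and 157 and 287 had none. As cells with all 3 minus cells with none, *H3f3b* differed by -0.75 and -0.40 log2 units, *H3f3a* by -0.70 and -0.26 and *H2afy* by -0.46 and -0.39, and *H2afv* by -0.28 and -0.005. Depth differed more here, with medians of 20883 against 9857 UMIs in culture 1 and 15976 against 12727 in culture 2. The larger differences stood in culture 1, where depth also differed more, and the part of depth was not tested.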

How the data were processed

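The deposited expression values are a depth-normalized signal on a linear scale. By the methods, the authors quantified spliced counts with Alevin (Salmon 1.3.0) against GRCm38, removed outlying cells, among them those with high doublet scores, and removed mitochondrial and rarely detected genes. Total UMIs are sums of estimated counts deposited by the authors, and the per-cell table also holds their position and stages. Integration with Seurat 3.2.2 is stated, but not which step gave the deposited signal. Over 800 sparse genes, the value of 1 UMI in culture 1 over that in culture 2 had quartiles of 0.885 and 1.107, with 1.167 for *H2afv* and 0.953 for *H2afy*. The deposited values may thus have been adjusted gene by gene between cultures before deposit, but the error of these ratios was not estimated. Levels were not compared between cultures. Counts could not be recovered, so no count model was fitted. No further cell filter or doublet caller was applied. Labels and methods differ on the version of the library kit.

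Symbols were found for 10662 of 10666 genes. Values were transformed as log2(value + 1). Fits with 2 harmonics used Python 3.11.15 with numpy 2.4.6 and pandas 2.3.3, and periodic loess (data tripled, degree 2, span 0.3) used R 4.3.3. Seurat 5.3.0 gave the S and G2M genes, whose first 2 principal components in each culture gave the alternative position. Coordinates come from an earlier GENCODE release than the authors' and promoters from RefSeq. The figures were drawn with matplotlib 3.10.9.

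In simulated data, 0 unchanged genes passed the threshold of 0.05, as did 9 of 50 genes with an amplitude of 0.3 SD and 50 of 50 with 0.6 SD. The genes named are the members, the 3 most similar genes of each member that passed, the 3 genes of each list with the highest R² among those that passed, landmarks and markers. *H2afy2*, *H2afj*, *Set*, *Hira*, *Daxx* and *Atrx* were added after their values were seen. The members and lists were chosen with earlier results of these data known. Alternatives were other pseudocounts, linear values, depth in the fit, the position of the Seurat genes, equal sums per cell, other numbers of harmonics, thresholds and loess spans, a filter on low genes, the sparsest class left out and each culture left out. Chosen after the data were seen were per-cell amounts and cells with a depth between the quartiles.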

Additional observations from a re-analysis of the deposited data

How the results depend on the processing

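The contrast in *H3f3b* share kept its sign under every alternative run for it. Its classes were picked as the highest and lowest of *H3f3b* in these same data and stayed the same in each alternative. The kept sign is therefore no independent support. R² and line ranges cannot be negative, so a change of sign could not be asked of them. *H3f3b* in cells with oligodendrocyte progenitor markers, a difference of -0.07 log2 units over both cultures, was 0.01 without culture 2 and -0.15 without culture 1. *H2afv* and *H3f3b* passed under every alternative run for them. A gene that passes in both cultures also passes with a culture left out and at the threshold of 0.02, so these alternatives could not fail. Leaving out each culture in turn gave R² values of 0.210 to 0.242 for *H2afv*, 0.157 to 0.280 for *H3f3b*, 0.0384 to 0.0690 for *H2afy* and 0.0108 to 0.0133 for *H3f3a*. *H2afy* passed without culture 2 (0.0690), at the threshold of 0.02 (0.0384) and per cell (0.0839), and *H3f3a* per cell (0.0652). The number of varying genes was 890 at a threshold of 0.02 and 240 at 0.1, and 454 to 597 with a culture left out. The range of the loess line of *H2afv* was 1.38 and 0.87 log2 units at spans of 0.1 and 0.5, and 1.37 and 0.96 with pseudocounts of 0.5 and 2. That of *H2afy* was 0.55 and 0.33, and 0.45 and 0.32, with 0.63 per cell and 0.47 in cells with depth between the quartiles. That of *H3f3a* was 0.21 and 0.096, and 0.14 and 0.13, with 0.13 along the position of the Seurat genes, 0.43 per cell and 0.21 between the depth quartiles. That of *H3f3b* was 0.51 at a span of 0.5, 0.93 per cell and 0.91 between the depth quartiles. The position of the maximum moved by more than the SD between cultures in 10 of 40 alternatives. The 40 include those that left out a culture, which could not count as moved. The order of *H2afv* and *H3f3b* turned at a span of 0.5. The causes of these shifts were not tested. With a culture left out, the ranges were 1.06 to 1.304 for *H2afv*, 0.36 to 0.42 for *H2afy*, 0.133 to 0.140 for *H3f3a* and 0.72 to 0.86 for *H3f3b*, and the contrast in *H3f3b* share was 10.9 to 13.6 percentage points. Of 172 values under alternatives, 133 kept their side of the threshold and stayed within the spread or count limit set. Line ranges, positions of the maximum, the *H3f3b* share contrast and the marker differences with a culture left out are among the 133 by construction. They could not pass the limit. The same holds for the R² of *H2afv* and *H3f3b* with a culture left out or at the threshold of 0.02. It also holds for *H2afy* and *H3f3a* at 0.1. At least 4 oligodendrocyte progenitor markers were found in 2 cells of each culture, too few to read. The share of *H2afz* in H2A.Z was not analysed here, and at least 4 astroglial markers could not be asked for, since 3 were measured. No paired analysis was possible because both cultures belong to 1 group. Classes 6 and 7 rest on 64 to 279 cells.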
